A study of Rattus norvegicus with 12 samples.

Results

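The genes of mitosis and chromosome segregation were described in RNA of exosomes and of exosome-treated cells of the rat. The list held 54 genes, from cyclins and mitotic kinases to kinetochore, spindle, kinesin and condensin genes, and was drawn up with earlier results of these data known. Counts of its genes against the share of all probes are therefore descriptions and not independent evidence. The platform annotation named 41 of them, each by 1 probe, among the 12925 named genes of the array. The other 13 (Kif11, Kif2c, Kif4a, Top2a, Cenpe, Birc5, Anln, Nuf2, Spc24, Nek2, Pttg1, Ncapg and Ncapd2) had no probe under their name and were not analysed here. The 12 Illumina arrays fall into 5 groups. B12, a line of stromal cells from rat lymph node, was exposed for 24 h to exosomes of ASML cells in which the variant isoforms of CD44 (CD44v) had been knocked down (kd exosomes, 2 arrays), exposed for 24 h to exosomes of unaltered ASML cells (wt exosomes, 2 arrays), or left untreated (2 arrays, which the column headers also mark as 24 h). Exosomes themselves gave 3 arrays from the CD44v knockdown cells and 3 from unaltered ASML cells. ASML is a line of metastasizing pancreatic adenocarcinoma from the rat. Each replicate number, 1 or 2, occurs once in every B12 group. Nothing in the labels says that arrays of a group came from separate cultures or exosome preparations, so the tests measure only the spread between these arrays, which may be technical. The labels name 1 knockdown line and do not give the number of clones.

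Signals are given on 2 scales. Within the B12 arrays and within the exosome arrays, the normalized log2 signal is the background-corrected intensity after quantile normalization. It can be compared between arrays for 1 probe, not between probes. Across exosome and cell arrays, which differ in brightness, a probe's percentile rank among the 21946 probes of its own array is given. Detected means a signal above background with a deposited p-value under 0.05. The mean signal over background was 526 to 588 on the B12 arrays with kd exosomes, 562 to 580 on those with wt exosomes and 505 to 588 on the untreated ones, and 100.1 to 299 on the exosome arrays.

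The B12 arrays differed by replicate number. Arrays of the same number deviated from their group means together, with correlations of 0.773 to 0.799. Pdgfra, a receptor of stromal fibroblasts, had a signal over background of −0.49 and 2718 (numbers 1 and 2) with kd exosomes, 2.52 and 2905 with wt exosomes, and 16.2 and 2694 in untreated cells. A list of 19 stromal markers, 17 of them on the array, held 0.233% and 1.13% of the array's signal with kd exosomes, 0.253% and 1.08% with wt exosomes and 0.191% and 0.957% in untreated cells. A list of 20 epithelial carcinoma markers, 18 of them on the array, held 0.311% and 0.0596% with kd exosomes, 0.344% and 0.0988% with wt exosomes and 0.532% and 0.0705% in untreated cells. Epcam and the leukocyte marker Ptprc were not detected on any B12 array, and neither was the stromal marker Thy1. In sum, the number 1 arrays therefore carried more epithelial and less stromal marker signal than the number 2 arrays in all 3 B12 groups. The label is the same for both. Single stromal markers could go against the sum. Des had a normalized log2 signal of 12.37 and 7.82 (numbers 1 and 2) with kd exosomes and 12.95 and 8.96 with wt exosomes. Pdpn had a signal over background of 78.3 and 4.60 with kd exosomes and 41.7 and −3.20 with wt exosomes. In untreated cells Pdpn was not detected in either number, at 2.65 and −0.41. Endothelial markers held at most 0.00526% and leukocyte markers at most 0.00758% of the signal of any B12 array. The part of these markers in the results on mitotic genes was not tested, and the summaries of the mitotic genes in the B12 cells are given within number 1 and within number 2. Cd44 had a signal over background of 57.8, 44.5 and 17.3 in kd exosomes and 61.9, 103 and 59.3 in wt exosomes, and the isoforms read by its probe are not given here. Array 3 of the kd exosomes stood apart from its group: its log2 signals correlated at 0.842 and 0.829 with kd arrays 1 and 2, which correlated at 0.986 with each other, and at 0.946 to 0.969 with the wt exosome arrays.

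As background, a cell enters mitosis when Cdk1 bound to B-type cyclins becomes active, and Polo-like and Aurora kinases then drive centrosome maturation, spindle assembly and chromosome attachment. Kinetochores hold the chromosomes to microtubules and keep the checkpoint active until all are attached, after which the anaphase-promoting complex with Cdc20 marks securin and cyclin B for destruction. Kinesins, bundling proteins and the centralspindlin complex then build the midzone and the cleavage furrow. Transcripts of these genes accumulate in G2 and mitosis and are low in cells that do not divide, and their promoters are known for the cell cycle homology region (CHR), bound by the DREAM and MuvB complexes, and for CCAAT boxes, bound by NF-Y.

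Transcripts of the mitotic genes were at their lowest in B12 cells exposed to wt exosomes. The 41 probes together held 0.184% and 0.152% of the array's signal (numbers 1 and 2) with kd exosomes, 0.130% and 0.0693% with wt exosomes, and 0.252% and 0.252% in untreated cells. The kd-exosome cells lay between the others in both numbers. The largest fitted differences in the main setting belonged to the spindle genes Aspm and Nusap1, at 3.95-fold and 3.92-fold below untreated cells with wt exosomes. Their size and rank depended on the background correction. Without it their log2 differences were −1.40 and −1.23, smaller than those of Ccnb2 (−1.69) and Prc1 (−1.55). No single probe passed the adjusted threshold of limma in this design of 2 arrays a group, so the values below are differences and not calls. A bulk array cannot tell fewer dividing cells from less of each transcript per cell.

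Over the list, 37 of the 41 probes passed the detection filter in the B12 arrays. With wt exosomes against untreated cells, all 37 had a fitted log2 difference below 0, with a median of −1.39 and a range of −1.98 to −0.40, where the median of all 11631 probes tested was 0.014 and 48% lay below 0. Within number 1 the median was −0.97 and within number 2 it was −1.72. In number 1 all 37 lay below the untreated array, and in number 2 the 36 besides Mad2l1 did. Lower in both numbers were 36 of the 37, against 24.6% of all probes tested. The arrays of the 2 groups did not overlap for 34 of them, against 11.7% of all probes for this direction. At an adjusted p under 0.05, limma called 0 of the 37 and 0% of all probes, with a lowest adjusted p of 0.9998 (limma). At an unadjusted p under 0.05, 28 of the 37 lay lower, against 1.74% of all probes, and 0 higher, against 1.07%. With the replicate number as a block in the fit, 33 lay lower, against 3.22%. Ranked by p over all probes, Aspm was at 1, Prc1 at 2, Nusap1 at 4 and Ccnb2 at 6, and 20 of the 37 stood among the first 100. Without number 2 of the wt-exosome group the count was 14, against 0.597% of all probes in that fit. In the deposited normalized values the median was −0.73.

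The promoters of the 4 genes with the smallest p in that comparison are shown because the list is known for shared promoter elements. They were read from RefSeq (GRCr8), each running from 250 bases before the annotated gene start to 50 after it. Capitals mark the CHR letters (TTTGAA, or TTCAAA on the other strand) and the NF-Y box (CCAAT, or ATTGG on the other strand).
Aspm promoter, chr13:53625334-53625633, plus strand: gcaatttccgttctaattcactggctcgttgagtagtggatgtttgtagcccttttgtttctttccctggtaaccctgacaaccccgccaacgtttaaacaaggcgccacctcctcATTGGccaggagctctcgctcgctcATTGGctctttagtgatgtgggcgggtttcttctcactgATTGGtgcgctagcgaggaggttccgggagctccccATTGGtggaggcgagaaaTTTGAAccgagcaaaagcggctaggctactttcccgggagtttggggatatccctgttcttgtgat
Prc1 promoter, chr1:143659231-143659530, plus strand: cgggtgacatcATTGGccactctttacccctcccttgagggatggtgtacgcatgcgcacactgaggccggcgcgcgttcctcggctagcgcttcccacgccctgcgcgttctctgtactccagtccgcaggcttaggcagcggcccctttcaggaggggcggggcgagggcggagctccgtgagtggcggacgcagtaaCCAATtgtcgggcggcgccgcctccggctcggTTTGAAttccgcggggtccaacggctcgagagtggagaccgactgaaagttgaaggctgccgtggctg
Nusap1 promoter, chr3:127057045-127057344, plus strand: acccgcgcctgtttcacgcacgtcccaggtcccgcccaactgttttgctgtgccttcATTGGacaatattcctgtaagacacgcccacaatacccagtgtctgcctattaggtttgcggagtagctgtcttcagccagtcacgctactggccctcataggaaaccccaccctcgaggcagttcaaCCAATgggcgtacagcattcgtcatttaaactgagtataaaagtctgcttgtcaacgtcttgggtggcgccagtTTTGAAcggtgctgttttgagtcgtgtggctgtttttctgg
Ccnb2 promoter, chr8:79981609-79981908, minus strand: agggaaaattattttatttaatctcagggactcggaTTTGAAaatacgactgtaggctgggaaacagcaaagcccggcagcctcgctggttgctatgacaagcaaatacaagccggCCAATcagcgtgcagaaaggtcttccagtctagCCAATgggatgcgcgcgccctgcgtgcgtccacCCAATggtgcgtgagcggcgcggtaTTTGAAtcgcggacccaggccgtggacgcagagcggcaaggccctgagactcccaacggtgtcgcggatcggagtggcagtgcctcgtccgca

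All 4 hold CHR letters near the start: at −16 bases in Aspm, −18 in Prc1, 9 after the start in Nusap1, and −43 in Ccnb2, which has a second copy at −214. RefSeq promoters were found for 48 of the 54 listed genes, with 49 windows because Kif2c has 2. Aurkb, Ccna2, Incenp, Racgap1, Tpx2 and Ube2c are the other 6. TTTGAA, searched on both strands, stood in 34 of the 49 windows (69.4%), against 18.3% of all 33469 promoters of the table. CCAAT, on both strands, stood in 38 (77.6%), against 37.5%. TTTGAA or its variant TTCGAA stood together with CCAAT in 30 windows (61.2%), against 7.95%. TTCGCGC, letters of an E2F-like site, stood in 2 (4.08%), against 1.51%. Different motifs of this search can share at most 1 base, at their ends.

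CHR letters were most frequent near the start. In the last 60 bases before the start and the 50 after it, 29 of the 49 windows (59.2%) held TTTGAA or TTCGAA, against 6.33% of all promoters. The median of the 31 matches inside this span lay at −16, a value bounded by the span itself. Farther out, these letters stood in 12.2% of the windows at −75 to −50, against 1.74% of all promoters. At −100 to −75 it was 8.16%, against 1.85%, and at −125 to −100 it was 8.16%, against 1.97%. CCAAT letters were most frequent farther out, in 34.7% of the windows at −100 to −75, against 5.73% of all promoters. A match of letters is a description and shows no binding. Among the 31 members with both a promoter and a place in the B12 fit, the 25 with CHR letters had a median log2 difference of −1.39 with wt exosomes against untreated cells, and the 6 without them (Aurka, Bub1, Cdca3, Dlgap5, Kif20a and Melk) a median of −1.22. The ranges of both sets overlap, from −1.98 to −0.40 and from −1.46 to −0.86.

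**Figure D1:**
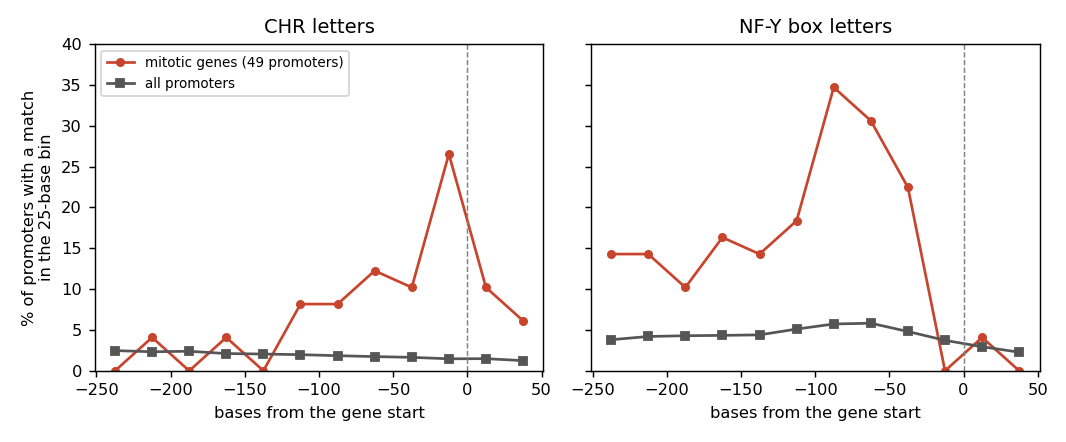
Share of promoters with CHR letters (left) and NF-Y box letters (right) in bins of 25 bases, by distance from the annotated gene start, in 49 promoters of mitotic genes (red) and all promoters of the RefSeq table (grey). CHR letters peak in the last 25 bases before the start, in 26.5% of the mitotic promoters, and NF-Y boxes at −100 to −75, in 34.7%.

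Among the genes that start mitosis, the 4 measured cyclin and Cdk1 genes all lay lower with wt exosomes, with a median log2 difference of −1.32 from untreated cells (−0.82 within number 1 and −1.82 within number 2). Ccnb2, a B-type cyclin that activates Cdk1, had a normalized log2 signal of 11.25 and 11.22 (numbers 1 and 2) with kd exosomes, 10.59 and 9.76 with wt exosomes, and 12.11 and 11.81 in untreated cells. Cdk1, the kinase that triggers mitotic entry, had 10.98 and 11.04 with kd exosomes, 10.34 and 9.75 with wt exosomes, and 11.15 and 11.77 in untreated cells. For both genes the 3 groups did not overlap, and the order from wt exosomes through kd exosomes to untreated held in both numbers. Ccnb2 lay at −1.79 ± 0.32 (SE) with wt exosomes against untreated cells, 3.45-fold lower, and Cdk1 at −1.42 ± 0.32, 2.67-fold lower. Ccna2, the A-type cyclin of S phase and G2, lay at −1.22 ± 0.37, with −0.82 in number 1 and −1.62 in number 2. Cks2, a small subunit that docks substrates on Cdk1, had 11.15 and 11.02 with kd exosomes, 10.71 and 10.37 with wt exosomes, and 11.42 and 11.52 in untreated cells, a difference of −0.93 ± 0.20 for wt exosomes against untreated. Ccnb1, the other main B-type cyclin, was not detected on any of the 12 arrays, with signals over background of −17.3 to 7.8. Cdc25b and Cdc25c, the phosphatases that activate Cdk1, did not pass the filter. Cdc25b was detected on 1 array with wt exosomes and 1 untreated array, and Cdc25c on 1 array with kd exosomes and 1 untreated array.

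The 7 measured mitotic kinases had a median log2 difference of −1.24 with wt exosomes against untreated cells (−1.13 within number 1 and −1.39 within number 2). Plk1, the Polo-like kinase of centrosome maturation and cytokinesis, had a normalized log2 signal of 8.51 and 8.22 with kd exosomes, 7.64 and 7.10 with wt exosomes, and 8.78 and 8.88 in untreated cells. Aurkb, the kinase of the chromosomal passenger complex, had 9.24 and 8.86 with kd exosomes, 8.60 and 7.95 with wt exosomes, and 9.77 and 9.68 in untreated cells. Bub1, a checkpoint kinase at kinetochores, had 7.82 and 7.84 with kd exosomes, 6.78 and 6.93 with wt exosomes, and 7.91 and 8.27 in untreated cells. These 3 genes separated the 3 groups without overlap. Their differences with wt exosomes against untreated cells were −1.46 ± 0.30 for Plk1, −1.45 ± 0.32 for Aurkb and −1.24 ± 0.27 for Bub1. Bub1b, which encodes the checkpoint protein BubR1, had 8.14 and 7.51 with kd exosomes, 6.88 and 6.60 with wt exosomes, and 8.27 and 7.98 in untreated cells, so kd array 1 reached into the untreated range. Aurka, the Aurora kinase of spindle poles, departed from the order in number 1, with 7.52 and 6.65 with kd exosomes, 6.44 and 6.17 with wt exosomes, and 6.84 and 7.49 in untreated cells. Ttk, the checkpoint kinase also called Mps1, had 9.06 and 7.69 with kd exosomes, 8.33 and 6.93 with wt exosomes, and 9.28 and 8.26 in untreated cells. Its arrays differed by more than 1 between the numbers. In the fit without a replicate block this left a large error on its difference of −1.14 ± 0.73. The order held in each number. With the number as a block, the unadjusted p of Ttk was 0.0016 (limma, adjusted p = 0.54), against 0.18 without it. Melk, a kinase transcribed in dividing cells, lay at −1.02 ± 0.36 (−0.66 in number 1 and −1.39 in number 2) and was detected on 1 of the 2 arrays with wt exosomes.

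Of the checkpoint, passenger and kinetochore genes, 5 lay more than 1 below untreated cells on the log2 scale with wt exosomes. Ndc80, the microtubule-binding subunit of the outer kinetochore, had 7.21 and 7.27 with kd exosomes, 6.35 and 6.06 with wt exosomes, and 7.78 and 7.43 in untreated cells. Spc25, another subunit of the same complex, had 9.73 and 9.60 with kd exosomes, 9.05 and 8.47 with wt exosomes, and 9.83 and 9.91 in untreated cells. Cenpf, a large protein of the outer kinetochore, had 7.36 and 6.86 with kd exosomes, 6.53 and 5.36 with wt exosomes, and 7.99 and 7.57 in untreated cells. All 3 kept the 3 groups apart without overlap, and their differences with wt exosomes against untreated cells were −1.40 ± 0.29 for Ndc80, −1.11 ± 0.28 for Spc25 and −1.84 ± 0.49 for Cenpf. Incenp, the scaffold of the passenger complex, lay at −1.22 ± 0.60, with −0.95 in number 1 and −1.49 in number 2. Cdca8, the Borealin subunit of that complex, lay at −1.14 ± 0.33, with −0.56 in number 1 and −1.72 in number 2. The medians within numbers 1 and 2 were −0.95 and −1.49 for the checkpoint and passenger genes and −1.10 and −1.40 for the kinetochore genes. Cenpa, the histone variant that marks centromeres, was close to background and not detected on either array with wt exosomes. Its fitted difference with wt exosomes against untreated cells was −0.46 ± 0.18, 1.38-fold lower (limma, adjusted p = 0.9998). The normalized log2 means were 4.65 with wt exosomes and 5.11 in untreated cells. Mad2l1, the checkpoint protein that holds Cdc20, was also close to background, with 5.09 and 4.72 with kd exosomes, 4.97 and 5.12 with wt exosomes, and 6.12 and 4.83 in untreated cells. It was the 1 member whose wt-exosome array lay above the untreated array in number 2.

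The 3 genes of the anaphase-promoting route all lay lower with wt exosomes, with a median of −0.97 within number 1 and −1.82 within number 2. Cdc20, the activator of the anaphase-promoting complex, had 9.12 and 8.73 with kd exosomes, 8.45 and 7.64 with wt exosomes, and 9.42 and 9.52 in untreated cells. Ube2c, the ubiquitin-conjugating enzyme of that complex, had 9.07 and 8.34 with kd exosomes, 7.98 and 7.31 with wt exosomes, and 9.14 and 9.14 in untreated cells. Cdca3, a protein that promotes mitotic entry through degradation of Wee1, had 6.19 and 6.52 with kd exosomes, 6.06 and 5.57 with wt exosomes, and 6.94 and 7.11 in untreated cells. None of the 3 had overlapping groups. Their differences with wt exosomes against untreated cells were −1.42 ± 0.36 for Cdc20, −1.49 ± 0.38 for Ube2c and −1.20 ± 0.31 for Cdca3.

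Spindle proteins had the lowest median of the 9 role groups, at −1.79 over 6 genes with wt exosomes against untreated cells (−1.25 within number 1 and −2.19 within number 2). Aspm, which focuses spindle poles, had 8.17 and 8.65 with kd exosomes, 7.26 and 6.88 with wt exosomes, and 9.02 and 9.09 in untreated cells. Nusap1, which bundles spindle microtubules near chromosomes, had 7.60 and 7.96 with kd exosomes, 6.85 and 6.19 with wt exosomes, and 8.37 and 8.62 in untreated cells. Prc1, which cross-links the antiparallel microtubules of the midzone, had 9.83 and 10.06 with kd exosomes, 8.98 and 8.60 with wt exosomes, and 10.32 and 10.78 in untreated cells. These are 3 of the genes whose promoters are printed above, and in each the groups stood clear of one another. Their differences with wt exosomes against untreated cells were −1.98 ± 0.30 for Aspm, −1.97 ± 0.35 for Nusap1 and −1.76 ± 0.28 for Prc1. Hmmr, a spindle-pole protein and hyaluronan receptor, had 8.03 and 8.21 with kd exosomes, 7.29 and 6.31 with wt exosomes, and 8.44 and 8.81 in untreated cells. Tpx2, which activates Aurora A on the spindle, had 9.89 and 9.65 with kd exosomes, 9.16 and 8.28 with wt exosomes, and 10.16 and 10.35 in untreated cells. Dlgap5, a kinetochore-fibre protein, lay at −1.43 ± 0.48, with −1.10 in number 1 and −1.77 in number 2. Its kd number 1 array, at 9.85, lay above the untreated number 2 array, at 9.83.

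**Figure D2:**
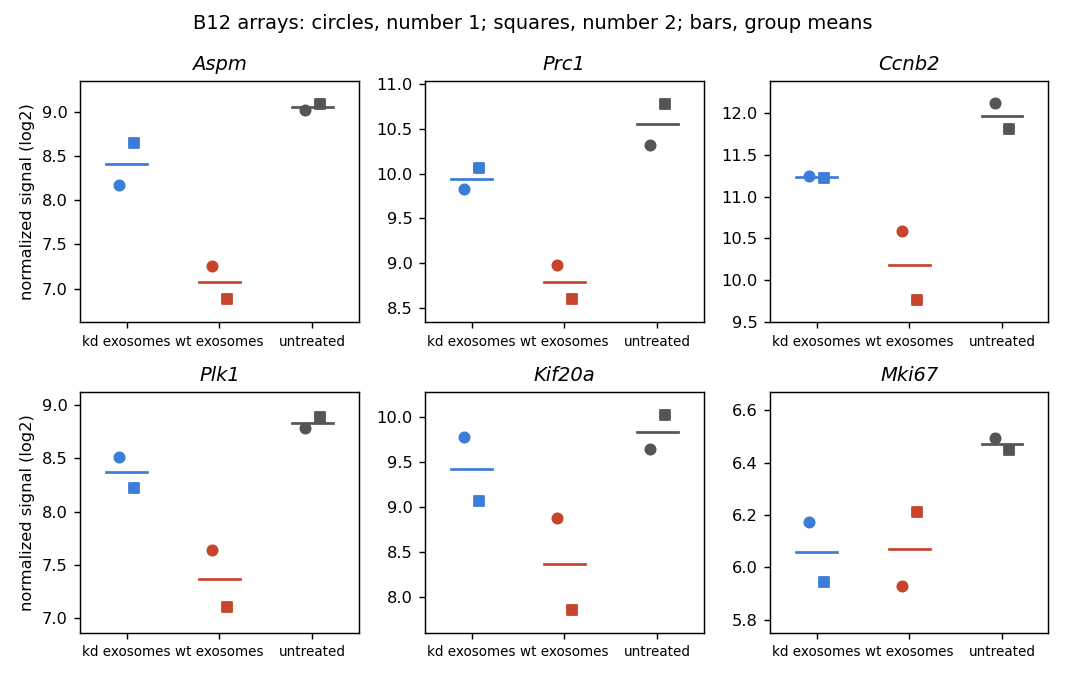
Normalized log2 signal of 6 mitotic genes on the 6 B12 arrays, by treatment, with number 1 as circles, number 2 as squares and group means as bars. In Aspm, Prc1, Ccnb2 and Plk1 the groups do not overlap, with wt exosomes lowest and untreated cells highest, whereas Kif20a is out of this order in number 1 and Mki67 in number 2.

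The 5 measured kinesins had a median log2 difference of −1.46 with wt exosomes against untreated cells (−0.93 within number 1 and −2.06 within number 2). Kif20b, a kinesin of cytokinesis, had 7.52 and 7.77 with kd exosomes, 7.02 and 6.24 with wt exosomes, and 8.11 and 8.30 in untreated cells. Kifc1, a minus-end motor that clusters spindle poles, had 10.35 and 9.78 with kd exosomes, 9.66 and 8.52 with wt exosomes, and 10.59 and 10.66 in untreated cells. Neither gene had overlapping groups. Kif20a, the motor that carries passenger proteins to the midzone, had 9.77 and 9.06 with kd exosomes, 8.87 and 7.87 with wt exosomes, and 9.64 and 10.02 in untreated cells. In number 1 its kd-exosome array lay above the untreated array. Kif22, a chromosome-arm motor, had 10.97 and 10.52 with kd exosomes, 10.99 and 9.84 with wt exosomes, and 11.85 and 10.80 in untreated cells, so that in number 1 the kd-exosome array was at −0.02 relative to the wt-exosome array. Kif23, the motor of centralspindlin, lay at −1.38 ± 0.56, with −1.16 in number 1 and −1.60 in number 2. Kif18a, a motor that shortens kinetochore microtubules, was not detected on any of the 12 arrays.

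Of the cytokinesis genes, Racgap1, the GTPase-activating partner of Kif23, had 7.63 and 7.65 with kd exosomes, 7.10 and 6.00 with wt exosomes, and 8.08 and 8.10 in untreated cells, without overlap. Ect2, the exchange factor that activates RhoA at the furrow, lay at −1.26 ± 0.51 with wt exosomes against untreated cells, with −0.68 in number 1 and −1.85 in number 2. The chromosome structure genes had the smallest median of the role groups, at −0.92 (−0.56 within number 1 and −1.22 within number 2). Smc2 and Smc4, the ATPase pair of the condensins, both lay at −0.92 ± 0.30, without overlapping groups. In numbers 1 and 2 the differences were −0.51 and −1.33 for Smc2 and −0.62 and −1.22 for Smc4. Mki67, the coat protein of mitotic chromosomes used as a marker of proliferation, had 6.17 and 5.94 with kd exosomes, 5.93 and 6.21 with wt exosomes, and 6.49 and 6.45 in untreated cells. Its difference of −0.40 ± 0.26 was the smallest of the 37, and its arrays with kd and wt exosomes overlapped.

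With kd exosomes against untreated cells, the median log2 difference of the mitotic genes was −0.48. This comparison shares its untreated arrays with the preceding one, so the values are set side by side only. All 37 fitted differences lay below 0, in a range of −0.73 to −0.08, where the median of all probes was 0.0084 and 48.7% lay below 0. Within number 1 the median was −0.30, and within number 2 it was −0.59. In number 1, Aurka and Kif20a lay above the untreated array, at 0.67 and 0.14, and in number 2 all 37 lay below it. Lower in both numbers were 35 of the 37, against 23.7% of all probes. Groups did not overlap for 27, against 10.2% of all probes in this direction. By limma, 0 of the 37 passed the adjusted threshold, as did 0% of all probes. At an unadjusted p under 0.05 the count was also 0 in either direction, against 1.23% of all probes lower and 1.23% higher. With the replicate number as a block in the fit it was 9, against 2.94% of all probes. In order of the unadjusted p of limma, the first was Ccnb2, at −0.73 ± 0.32, followed by Cdca3 at −0.67 ± 0.31 and Prc1 at −0.61 ± 0.28. Aspm at −0.64 ± 0.30, Aurkb at −0.68 ± 0.32, Smc4 at −0.62 ± 0.30 and Nusap1 at −0.71 ± 0.35 came next, followed by Cks2 at −0.38 ± 0.20, Cenpa at −0.33 ± 0.18 and Cdca8 at −0.57 ± 0.33. None of the 37 stood among the first 100 of all probes by p. Within number 1 the differences of these 10 genes ran from −0.87 (Ccnb2) to −0.18 (Cenpa), and within number 2 from −0.87 (Smc4) to −0.44 (Aspm). In the deposited normalized values the median was −0.27.

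**Figure D3:**
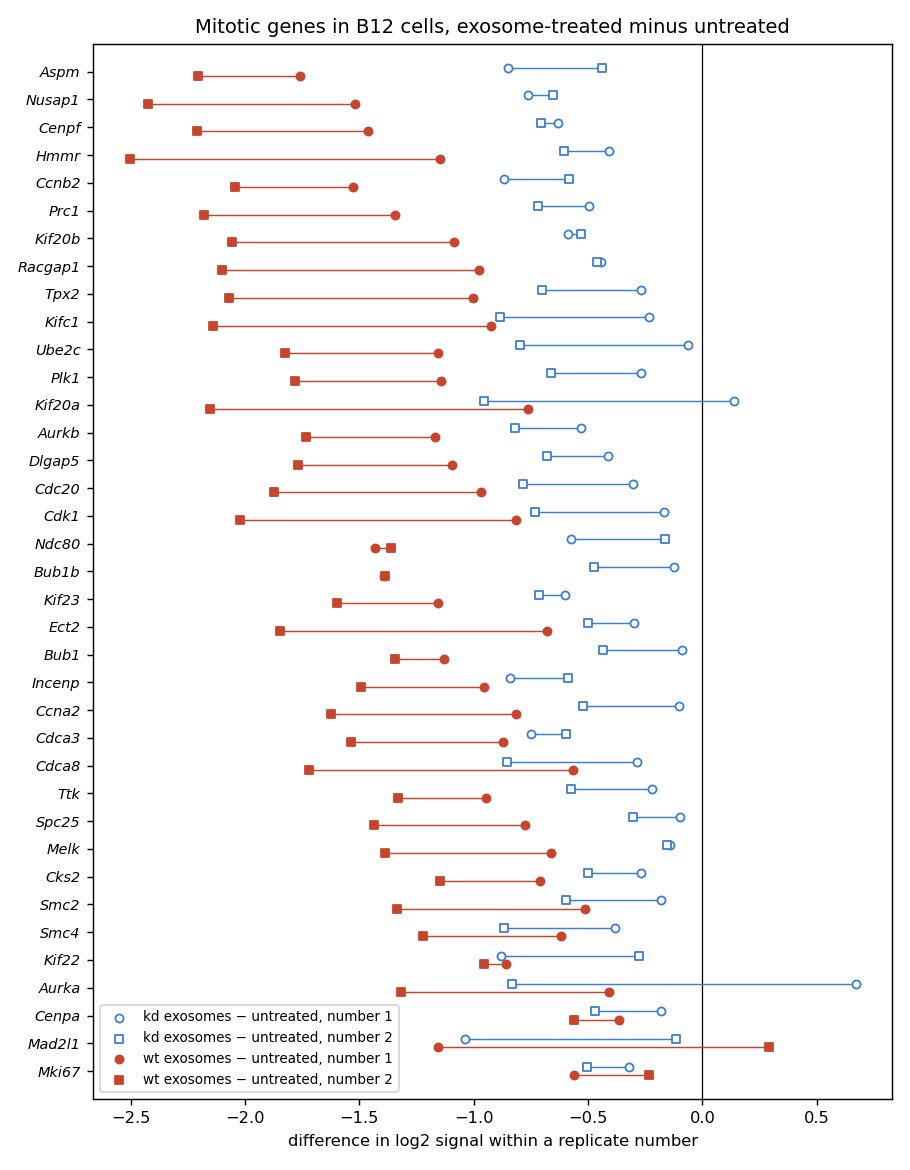
Difference in normalized log2 signal from the untreated array of the same number, for each of the 37 mitotic genes in the B12 fit, with kd exosomes (blue, open) and wt exosomes (red, filled), in number 1 (circles) and number 2 (squares). The wt-exosome points lie left of the kd-exosome points of the same number for 34 of the 37 genes in both numbers, the exceptions being Kif22 in number 1 and Mad2l1 and Mki67 in number 2, while with kd exosomes Aurka and Kif20a lie right of 0 in number 1.

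The direct comparison of kd with wt exosomes put 35 of the 37 genes higher with kd exosomes, against 50.2% of all probes, and 2 lower (Mad2l1 at −0.14 and Mki67 at −0.01), against 49.8%. The median log2 difference was 0.90, against 0.00085 for all probes, and it was 0.66 within number 1 and 1.09 within number 2. Higher in both numbers were 34 of the 37, against 24.9% of all probes, and groups did not overlap for 29, against 11.2% of all probes in this direction. By limma, 0 of the 37 and 0% of all probes passed the adjusted threshold. At an unadjusted p under 0.05, 16 lay higher, against 1.31% of all probes, and 0 lower, against 0.679%. With the replicate number as a block, 27 lay higher, against 1.91% of all probes. The count depended on single arrays: it was 1 without wt-exosome number 2 (against 0.47% of all probes in that fit), 3 without kd-exosome number 1 (against 2.41%) and 5 without kd-exosome number 2 (against 1.97%). The median was 0.48 without wt-exosome number 2. Without background correction the median was 0.59, and in the deposited normalized values it was 0.43.

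Over all probes, 0 of the 37 stood among the first 20 by p in that comparison and 8 among the first 100, with Aspm at 21, Prc1 at 25 and Nusap1 at 53. Aspm lay at 1.34 ± 0.30, 2.53-fold higher with kd than with wt exosomes, Prc1 at 1.16 ± 0.28 (2.23-fold) and Nusap1 at 1.26 ± 0.35 (2.40-fold). Ndc80 lay at 1.03 ± 0.29, Bub1 at 0.97 ± 0.27, Ccnb2 at 1.06 ± 0.32 and Plk1 at 1.00 ± 0.30. Spc25 at 0.90 ± 0.28, Bub1b at 1.09 ± 0.34 and Hmmr at 1.32 ± 0.41 completed the 10. By role, the median difference was 1.21 for the 6 spindle proteins, 0.98 for the cytokinesis genes, 0.97 for the kinetochore genes and for the kinesins, 0.94 for cyclins and Cdk1 genes, 0.88 for the mitotic kinases and for the anaphase-promoting route, 0.51 for checkpoint and passenger genes and 0.29 for chromosome structure genes.

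The order of the groups, with wt exosomes lowest, kd exosomes between and untreated cells highest, held in number 1 for 34 of the 37 genes, against 13.7% of all probes. In number 2 it held for 35, against 18% of all probes. It held in both numbers for 32, against 3.42% of all probes. For 25 of the 37 every array stood in this order across the numbers too, against 1.22% of all probes. The exceptions in number 1 were Aurka and Kif20a, with kd above untreated, and Kif22, with kd just below wt. Those in number 2 were Mad2l1 and Mki67, with wt above kd. In Bub1b, Dlgap5, Ect2, Incenp, Kif23, Melk and Ttk the order held within each number but arrays of different numbers overlapped.

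Other genes of the cell cycle were counted from 4 further lists. In the first, 43 of 70 other mitotic genes were on the array, and 38 probes were in the B12 fit. With wt exosomes against untreated cells, 35 of the 38 lay lower, against 48% of all probes, and 13 of them at an unadjusted p under 0.05, against 1.74%. Their median was −0.82, with −0.54 within number 1 and −0.96 within number 2. Knstrn, a kinetochore and spindle protein, had 8.96 and 8.32 with wt exosomes, against 10.43 and 10.49 in untreated cells, a difference of −1.82 ± 0.34. Fam83d, which recruits casein kinase 1 to the spindle, lay at −1.47 ± 0.31 and Spag5, also called astrin, at −1.45 ± 0.33. The same list had a median of −0.30 with kd exosomes against untreated cells and 0.45 with kd against wt exosomes, where Knstrn lay at 1.37 ± 0.34, Ska1, a kinetochore protein, at 0.78 ± 0.21 and Fam83d at 0.97 ± 0.31. Of the 38 S phase and replication probes, 36 lay lower with wt exosomes than in untreated cells, against 48% of all probes, and 7 of them at an unadjusted p under 0.05, against 1.74%. Their median was −0.71, with −0.23 within number 1 and −1.15 within number 2. Dut, which removes dUTP, lay at −0.87 ± 0.22, Pole, a replicative DNA polymerase, at −1.21 ± 0.34, and Rpa2, of the single-strand-binding complex, at −0.86 ± 0.28. This list had a median of −0.20 with kd exosomes against untreated cells and 0.52 with kd against wt exosomes.

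Regulators of mitotic transcription had 13 probes in the fit. Of these, 9 lay lower with wt exosomes than in untreated cells, against 48% of all probes, and 0 at an unadjusted p under 0.05, with a median of −0.21. Lin54, the CHR-binding subunit of MuvB, lay at −0.56 ± 0.23 and Foxm1, the activator of G2 and M genes, at −0.85 ± 0.37. E2f1, an activator of S phase genes, lay at −0.86 ± 0.50. With kd exosomes against untreated cells the median of the list was −0.14, and with kd against wt exosomes it was 0.054, where Mybl2, the MuvB partner B-Myb, lay at 0.74 ± 0.52. Inhibitors and G1 genes had no common direction: 4 of 12 probes lay lower and 8 higher with wt exosomes than in untreated cells, with a median of 0.063, and 0 of them had an unadjusted p under 0.05. Ccnd1, the G1 cyclin D1, lay at −0.62 ± 0.50. The stress-induced gene Gadd45b lay at 0.59 ± 0.63. Cdkn2c, an inhibitor of the cyclin D kinases, lay at −0.32 ± 0.43. With kd exosomes against untreated cells, 34 of the 38 other mitotic probes, 30 of the 38 S phase probes, 12 of the 13 regulator probes and 7 of the 12 inhibitor and G1 probes lay lower, against 48.7% of all probes. None of them had an unadjusted p under 0.05, against 1.23% of all probes lower and 1.23% higher. Among the other mitotic genes, cyclin F (Ccnf) lay at −0.70 ± 0.35, Ska1 at 0.39 ± 0.21 and Depdc1b at −0.58 ± 0.33. Among the regulators, Lin54 lay at −0.27 ± 0.23, the MuvB subunit Lin37 at −0.26 ± 0.26 and Foxm1 at −0.26 ± 0.37. Of the replication genes, Gins3, a helicase subunit, lay at −0.72 ± 0.35, cyclin E1 (Ccne1) at 0.77 ± 0.47 and Pola2, of the primase complex, at −0.48 ± 0.31. Gadd45b lay at 0.97 ± 0.63, Ccnd1 at −0.54 ± 0.50 and Sesn1, a stress-induced gene, at 0.20 ± 0.29. In the direct comparison of kd with wt exosomes, Foxm1 lay at 0.59 ± 0.37, E2f1 at 0.79 ± 0.50, Pole at 1.01 ± 0.34, Dut at 0.63 ± 0.22 and the helicase gene Mcm3 at 0.70 ± 0.32. The inhibitor Cdkn1b lay at −0.26 ± 0.25, Cdkn2c at 0.44 ± 0.43 and the antiproliferative gene Btg1 at −0.20 ± 0.22 in that comparison. By limma, 0 probes of the 4 lists and 0% of all probes passed the adjusted threshold in any B12 comparison.

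Mitotic transcripts were also read from the exosomes themselves. Of the 41 probes, 37, 36 and 33 were detected on the kd exosome arrays and 35, 37 and 37 on the wt exosome arrays, against 38 and 36 on the B12 arrays with kd exosomes, 36 and 36 with wt exosomes and 38 and 38 untreated. Of all probes, 52.2%, 47.0% and 42.8% were detected on the kd exosome arrays and 42.8%, 46.3% and 45.8% on the wt exosome arrays. On the B12 arrays it was 53.4% and 53.3% with kd exosomes, 54.3% and 53.7% with wt exosomes, and 53.2% and 53.2% untreated. On all 6 exosome arrays 32 were detected, and on all 12 arrays 30. The 4 detected on no exosome array were Ccnb1, Kif18a, Cdc25b and Cdc25c. The median percentile of the 41 was 84.7, 83.5 and 78.8 on the kd exosome arrays and 80.4, 81.7 and 79.8 on the wt exosome arrays. It was 80.6 and 78.8 on the B12 arrays with kd exosomes, 75.1 and 71.5 with wt exosomes, and 83.7 and 82.4 untreated. The B12 cells with wt exosomes had the lowest medians of all 12 arrays, below those of the wt exosome arrays. The labels do not say whether the exosomes on the arrays came from the preparations given to the cells.

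The 10 genes with the highest mean percentile over the exosome arrays were Ccnb2, Cks2, Kif22, Cdk1, Tpx2, Cdca8, Cdc20, Kifc1, Dlgap5 and Kif23. A percentile depends on how well a probe responds as well as on the transcript, so their order is not an order of abundance. Ccnb2 stood at the percentiles 96.2, 96.5 and 96.4 on the kd exosome arrays and 96.9, 97.0 and 96.8 on the wt exosome arrays, beside 97.2 and 96.4 in untreated B12 cells. Cdk1 stood at 95.0, 95.0 and 94.1 in kd exosomes and 95.0, 95.0 and 94.5 in wt exosomes, beside 94.4 and 96.4 in untreated B12 cells. For these genes the ranks in ASML exosomes and in untreated B12 cells were alike. The series has no array of the ASML cells themselves. In all these ranks, a difference between cell lines therefore cannot be told apart from one between exosomes and cells. Cdc20 stood at 93.6, 92.4 and 92.7 in kd exosomes and 94.6, 93.8 and 93.4 in wt exosomes, and at 86.0 and 86.6 in untreated B12 cells. Tpx2 stood at 94.6, 93.5 and 93.8 in kd exosomes and 94.0, 94.7 and 93.9 in wt exosomes, and at 89.9 and 90.9 in untreated B12 cells. The ranks of Cdc20 and Tpx2 were higher on every exosome array than on either untreated array. Cdca8 stood at 93.0, 92.6 and 94.1 in kd exosomes and 94.3, 94.3 and 93.9 in wt exosomes, and at 88.1 and 90.3 in untreated B12 cells. Cdca8 too was higher on every exosome array than on either untreated array. Cks2 stood at 95.6, 95.0 and 96.2 in kd exosomes and 96.4, 95.8 and 96.0 in wt exosomes, and at 95.3 and 95.6 in untreated B12 cells. Kif22 stood at 94.3, 94.3 and 95.9 in kd exosomes and 95.1, 95.7 and 95.1 in wt exosomes, and at 96.5 and 93.1 in untreated B12 cells. Kifc1 stood at 93.3, 94.1 and 90.8 in kd exosomes and 91.8, 92.8 and 92.3 in wt exosomes, and at 92.1 and 92.5 in untreated B12 cells. In these 3 genes the ranks of exosomes and untreated cells overlapped. Dlgap5 stood at 90.4, 89.3 and 89.7 in kd exosomes and 90.8, 91.0 and 90.1 in wt exosomes, and at 90.5 and 88.3 in untreated B12 cells. Kif23 stood at 90.3, 89.0 and 89.6 in kd exosomes and 90.0, 90.9 and 91.0 in wt exosomes, and at 90.7 and 86.9 in untreated B12 cells. For both, untreated array 1 lay within the exosome ranks and array 2 below them. The 10 genes above were picked by their exosome ranks, so ranks above untreated cells among them are no independent result. Outside the 10, Aurka, Aurkb, Spc25, Ttk and Ube2c also ranked higher on every exosome array than on either untreated array. For 4 of the 41 genes, Ccna2, Plk1, Hmmr and Nusap1, every exosome rank lay below both untreated ranks. The share over all probes was not computed. Over the 41 genes, the mean percentile was below that of untreated B12 cells for 21 in kd exosomes and for 20 in wt exosomes.

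**Figure D4:**
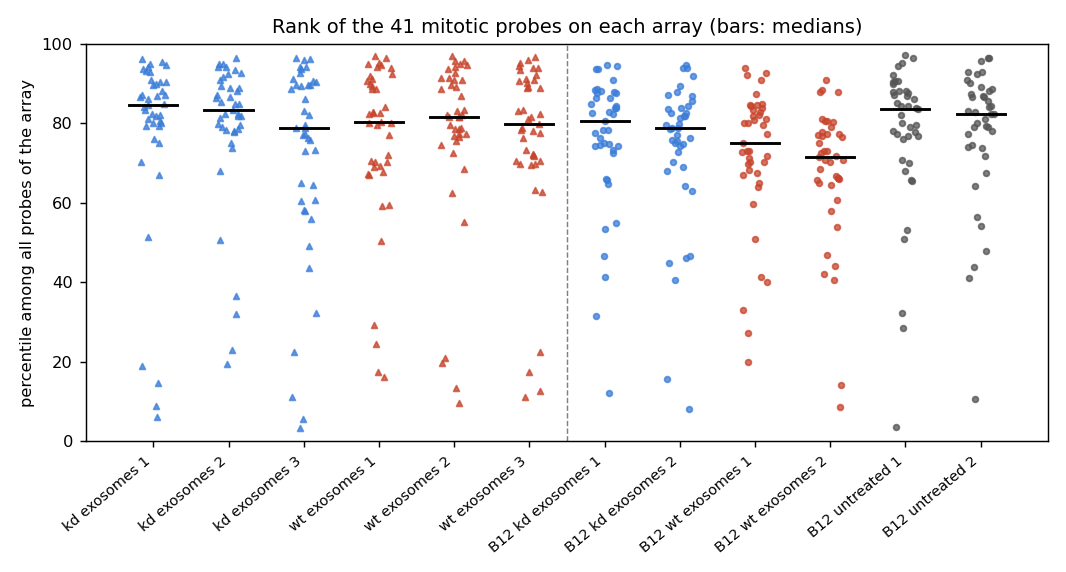
Percentile rank of each of the 41 mitotic probes among all probes of its array (points) with the median (bar), on the exosome arrays (triangles, left of the dashed line) and the B12 arrays (circles, right of it). The medians lie between 78.8 and 84.7 on the exosome arrays, and the lowest, 75.1 and 71.5, belong to B12 cells with wt exosomes.

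Between kd and wt exosomes the mitotic genes had no common direction. Of 35 probes in the exosome fit, 18 lay below 0, against 53.3% of all probes, and 17 above, against 46.7%, with a median log2 difference of −0.02, against −0.04 for all 8699 probes tested. Bub1 and Hmmr, detected on 2 of 3 arrays in each exosome group, did not pass the filter. By limma, 0 of the 35 and 0% of all probes passed the adjusted threshold, with a lowest adjusted p of 0.380. At an unadjusted p under 0.05, 1 lay lower, against 8.04% of all probes, and 1 higher, against 5.02%. Prc1, the lower one, had a normalized log2 signal of 7.71, 7.71 and 8.12 in kd exosomes and 8.31, 8.32 and 8.29 in wt exosomes, a difference of −0.46 ± 0.19. Kif20b, the higher one, had 6.74, 6.34 and 6.39 in kd exosomes and 5.24, 6.06 and 5.69 in wt exosomes, a difference of 0.83 ± 0.32. In both genes the groups did not overlap, as in Ccnb2, Aurkb and Spc25: groups stood apart for 2 lower genes, against 11.5% of all probes, and for 3 higher ones, against 6.43%. Ccnb2 had 9.71, 9.82 and 9.77 in kd exosomes and 10.01, 10.04 and 9.96 in wt exosomes, a narrow gap of −0.23 ± 0.12. Ube2c lay at −0.61 ± 0.27 and Aurkb at 0.34 ± 0.18, and Bub1b, next by p, at 0.82 ± 0.51. Under median scaling, where the median of all probes was 0.36, Prc1, Ube2c and Ccnb2 lay above 0.

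Array 3 of the kd exosomes went against arrays 1 and 2 for several genes. Relative to the wt exosome mean, the medians of the 35 probes on kd arrays 1, 2 and 3 were 0.087, 0.045 and −0.23. Cenpf lay at 1.86, 1.54 and −0.87 on these arrays, Aspm at 1.81, 1.23 and −0.89, and Bub1b at 1.57, 1.29 and −0.42. Of the condensin genes, Smc2 lay at 0.68, 0.70 and −1.14 and Smc4 at 0.78, 0.28 and −1.54. In each of these 5 genes array 3, the dimmest of the 6 exosome arrays, was the lowest. In other genes it was the highest of the kd arrays: Cenpa lay at −0.43, −0.45 and 0.64, Mki67 at −0.26, −0.19 and 0.61, and Kif22 at −0.34, −0.34 and 0.19. Without array 3, 16 of 37 probes passed the adjusted threshold of limma, 5 lower (against 17.4% of all 10169 probes) and 11 higher (against 25.2%). The lower ones were Ube2c, Prc1, Cdca8, Kif22 and Ttk. The values of array 3 were the reason to omit it, so these 16 are a description and not a test. Of the further lists, the other mitotic genes had a median of 0.34 in kd against wt exosomes and the S phase genes 0.41, with 0 probes called in either. Higher were 21 of 28 and 27 of 34 probes, against 46.7% of all probes. On kd arrays 1, 2 and 3 the medians were 0.69, 0.59 and −0.15 for the other mitotic genes and 0.60, 0.73 and −0.12 for the S phase genes. The smallest p values belonged to Cenpl (1.08 ± 0.46), Rad21 (0.85 ± 0.37) and Tubb4b (0.46 ± 0.21) in the first list and to Ccne2 (0.91 ± 0.31), Pole (1.08 ± 0.37) and Prim2 (0.78 ± 0.32) in the second. Among the regulators they belonged to Rbl2 (1.28 ± 0.41), Nfyb (−0.47 ± 0.22) and E2f1 (−0.53 ± 0.32), and among inhibitors and G1 genes to Gadd45b (−1.36 ± 0.38), Ccnd1 (0.74 ± 0.31) and Ccng1 (−0.58 ± 0.28). The epithelial markers had a median of −0.58 over 16 probes in the same comparison, and Epcam was detected on all 6 exosome arrays.

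**Figure D5:**
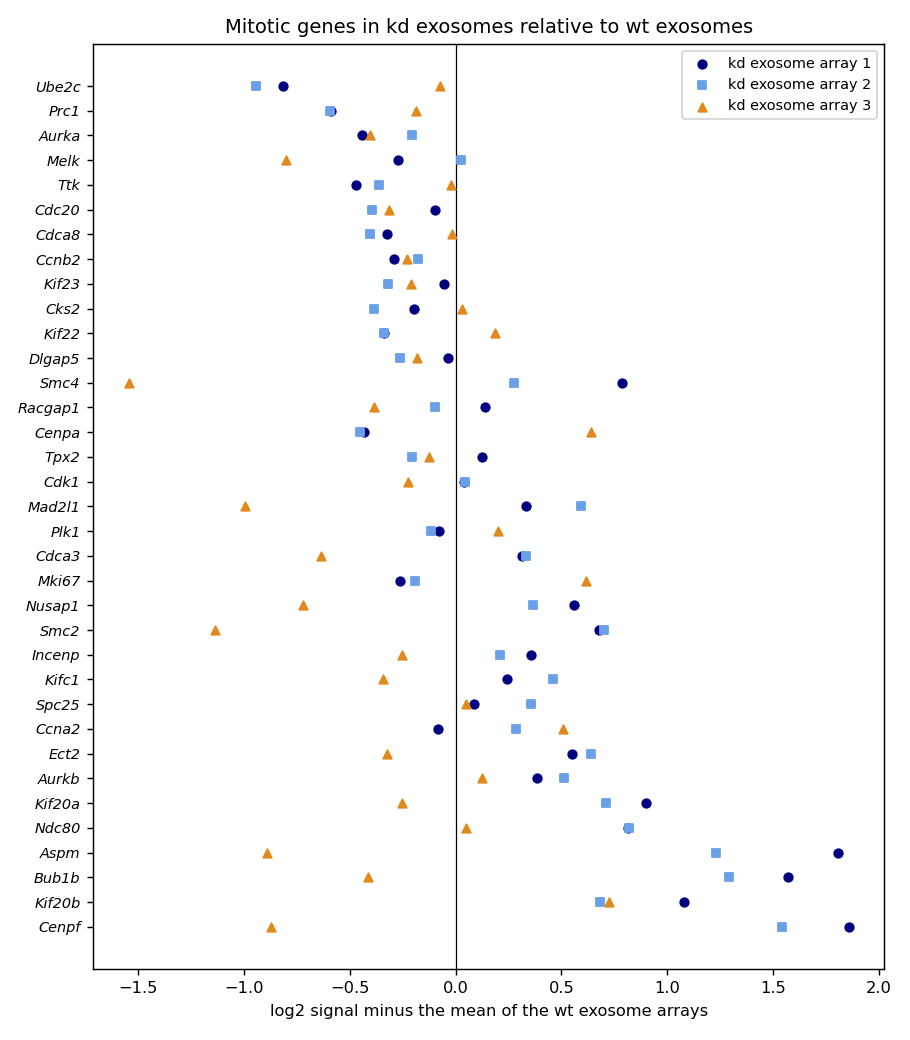
Normalized log2 signal of each kd exosome array minus the mean of the 3 wt exosome arrays, for the 35 mitotic genes in the exosome fit. Arrays 1 and 2 (dark and light blue) lie close together. Array 3 (orange) lies far to their left for Cenpf, Aspm, Bub1b, Smc2 and Smc4, and to their right for Cenpa, Mki67 and Kif22.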

How the data were processed

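The arrays carry, per the labels' protocols, biotin-labelled cRNA of total RNA. The deposited non-normalized table gives an intensity and a p-value per probe and array, per the file headers, with software not given in the sources used here. This p-value approaches 1 at the background signal and is small above and below it, which is how a two-sided value behaves. The deposited normalized table (intensities on a linear scale, method not stated by the authors) was an alternative only.

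Of 23365 rows, 848 without an identifier and 571 rows of 280 repeated identifiers were left out, and 13129 of the remaining 21946 probes had 1 gene symbol in the platform annotation, 0 several and 8817 none. Symbols were checked against the GRCr8 gene table (13088 found, 0 changed).

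Background correction with an offset of 16, quantile normalization and log2 were run with neqc of limma 3.58.1 in R 4.3.3, apart for the 6 B12 and the 6 exosome arrays. Background was the median of probes with a p-value above 0.9. The filter asked for detection on every array of 1 group or more, and each remaining probe was tested two-sided (lmFit, eBayes with trend, Benjamini-Hochberg over all probes), with 3 residual degrees of freedom in the B12 fit and 4 in the exosome fit. Where no array of a group detected a probe, a bound was set from the higher of its own and the lowest detected signal. For Cenpa this bound equalled the fitted value.

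Same-number B12 arrays deviated together (correlation 0.773 to 0.799), so the numbers were read as pairing them, from the data and not the labels. Standard errors and ranks by p of single B12 genes nonetheless come from the fit without a replicate block. In that fit a difference between the numbers adds to the error of a gene. Exosome arrays did not pair (−0.207, 0.458 and 0.318). Named in full were the 10 members with the smallest p in each B12 comparison, the 10 with the highest mean exosome percentile, the 6 with the smallest p between exosomes and 3 per further list, and other members were added by role. The members and lists were chosen with earlier results of these data known.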

Additional observations from a re-analysis of the deposited data

How the results depend on the processing

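Besides the main setting, 9 settings of the B12 fits and 8 of the exosome fit were tried, and each of 6 arrays was left out in turn. No probe was called in any B12 comparison under any of them. The medians of the mitotic genes kept their direction in the 3 B12 comparisons. In the deposited normalized values they were −0.73 (wt exosomes against untreated), −0.27 (kd against untreated) and 0.43 (kd against wt), and without background correction the last was 0.59. With 1 array left out, the medians ran from −1.76 to −0.96, from −0.60 to −0.34 and from 0.48 to 1.27 in these comparisons.

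Counts at an unadjusted p under 0.05, chosen as a summary after the data were seen, moved more. With the replicate number as a block, which pairs the B12 arrays, 33 genes lay lower with wt exosomes than untreated, 9 lower with kd exosomes than untreated and 27 higher with kd than wt exosomes, and 0 probes passed the adjusted threshold. For kd against untreated the count was 1 without background correction, 1 in the deposited normalized values and 1 with only the 4 arrays compared. With 1 array left out, counts ran from 14 to 30 (wt against untreated, lowest without wt number 2), from 0 to 1 (kd against untreated) and from 1 to 23 (kd against wt, lowest without wt number 2).

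In the exosomes, median scaling gave a median of 0.58, with all probes at 0.36, and turned Prc1 to 0.25, Ube2c to 0.095 and Ccnb2 to 0.48. With 1 array left out, called mitotic genes numbered 0 to 16, called probes 0 to 4332 and the median ran from −0.14 to 0.10, the high counts without kd array 3. Without it Kif20b (0.93), Prc1 (−0.60), Ube2c (−0.88), Aurkb (0.45) and Bub1b (1.51) passed. Genes near background, among them Cenpa, Mad2l1, Melk and Mki67, carry differences limited by signal.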

Other observations

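Among the 20 probes with the smallest p for wt exosomes against untreated B12 cells, 16 lay lower. Of the 20, 5 were mitotic genes of the list (Aspm, Prc1, Nusap1, Ccnb2 and Ndc80) and 1, Knstrn, came from the other mitotic genes. Ube2t, a ubiquitin-conjugating enzyme of the Fanconi anaemia pathway and in none of the lists, was named after its values were seen. It lay at −1.73 ± 0.32, with −1.24 in number 1 and −2.22 in number 2.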
